A study of Homo sapiens with 12 samples.

Results

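Genes of sterol and fatty acid synthesis and of their control by SREBP transcription factors were followed in PC3 cells after AgNPs, DOC, or both. PC3 is a line established from a prostate cancer metastasis, and AgNPs is the usual abbreviation of silver nanoparticles. The set held 33 genes, chosen by name for their place in these pathways, out of 43613 genes in the expression table. All 33 were in the table and passed the filter on low counts. The labels give the cells as wild type (WT), and 4 treatments with 3 libraries each: PBS (named BLANK), AgNPs, DOC, and AgNPs+DOC (named COM). DOC stands in the labels as an abbreviation alone, and doses, times and batches are not given there. Nothing in them tells whether the 3 libraries of a group came from separate cultures, and the p-values below therefore rest on library-to-library spread that may be technical.

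SREBP proteins are made as membrane-bound precursors in the endoplasmic reticulum. When sterols are scarce, SCAP escorts them to the Golgi, where proteases free the part that enters the nucleus. INSIG proteins hold the SCAP complex back when sterols are plentiful. SREBF2 encodes the form that mainly drives cholesterol genes and SREBF1 the forms that mainly drive fatty acid genes, and these factors also act on their own genes and on INSIG1. Prostate cancer cells are known for active lipid synthesis, with FASN among its best studied enzymes.

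Levels are given as CPM (counts scaled to a fixed library total) after TMM scaling, which corrects for library size and composition, and differences as log2 fold changes with their standard error from an edgeR quasi-likelihood fit. A gene was called changed where the Benjamini-Hochberg adjusted p over all 19986 genes tested was below 0.05. Summed counts were 22573481 to 22769479 per library in BLANK, 18603100 to 19421873 in DOC, 13049868 to 13362290 in AgNPs and 10996446 to 11069928 in COM, so depth moved with the groups. The share of counts on RefSeq transcript rows moved too, from 86.22 to 86.94% in BLANK to 83.67 to 83.96% in COM. With every library thinned to the shallowest, 19 members were called in AgNPs against BLANK and 22 in COM against BLANK, the same numbers as without thinning. With RefSeq rows alone, 19 and 23 were called.

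Cell type markers were checked beside the members. The 5 epithelial markers summed to 544 to 569.5 CPM in BLANK, 597 to 607 in AgNPs, 493 to 558 in DOC and 528 to 558 in COM, led by the keratins KRT8 and KRT18, and in COM against BLANK 3 were lower and 1 higher. The 6 fibroblast markers summed to 100.7 to 113 CPM in BLANK, 82.0 to 93.8 in AgNPs, 99.3 to 115 in DOC and 70.4 to 77.6 in COM. The collagen gene COL1A2 led that sum, at a mean of 91.6 CPM in BLANK and 52.1 in COM, while the defining fibroblast genes DCN and LUM were at 0 to 0.0913 CPM in all 12 libraries. Of 4 tested fibroblast markers, 2 were higher and 1 lower in COM against BLANK. In that comparison 25.1% of all genes tested were called higher and 24.5% lower, the shares beside which each marker count is to be read. The immune markers in the table summed to 1.26 to 1.95 CPM in BLANK and 1.46 to 1.95 in AgNPs. In DOC they summed to 1.89 to 2.45 CPM and in COM to 2.81 to 3.01. Both tested ones, CD14 and LYZ, were called higher in COM, though at low levels. CD14 overlapped, at 0.405, 0.310 and 0.266 CPM in BLANK and 1.265, 0.363 and 1.278 in COM. The leukocyte gene PTPRC was at 0 to 0.103 CPM. The luminal prostate gene TMPRSS2 was at 0 to 0.0761 CPM, and the luminal homeobox gene HOXB13 had a mean of 373 CPM in BLANK, 204 in COM, 298 in AgNPs and 305 in DOC. The part of these markers in the results was not tested.

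RefSeq promoters (GRCh38.p14, 250 bases before to 50 bases after 1 transcript start per gene) were at hand for 29 of the 33 members. The others were SQLE, FDFT1, ACAT2 and FASN. For some members, ACLY and DHCR7 among them, that start lies inside the span of the gene, so other starts were not searched. The promoters were searched on both strands for TCACNCCAC, 1 consensus of classic sterol regulatory elements. They were also searched for CCAAT, the site of NF-Y, and for GGGCGG, the site of Sp1, both known partners of SREBPs. Only exact matches were counted, so a promoter without TCACNCCAC may still hold a sterol regulatory element with other letters. TCACNCCAC was in 1 of the 29 (3.45%, against 1.146% of 27305 promoters), CCAAT in 18 (62.07%, against 35.7%) and GGGCGG in 26 (89.66%, against 44.59%). CCAAT was in 12 of 16 sterol enzyme promoters (75%) and in 3 of 7 fatty acid enzyme promoters (42.86%, near the 35.7% of all). The 27305 promoters were not limited to expressed genes, while all members passed the filter on low counts. The stretches below begin 250 bases before the start and end 150 bases later or before the first coding-transcript exon. They belong to some, not all, of the members that were lower after AgNPs and after COM. Capitals mark TCACNCCAC and CCAAT, the latter written ATTGG where it lies on the other strand.
SREBF2, chr22:41832855-41833004, plus strand: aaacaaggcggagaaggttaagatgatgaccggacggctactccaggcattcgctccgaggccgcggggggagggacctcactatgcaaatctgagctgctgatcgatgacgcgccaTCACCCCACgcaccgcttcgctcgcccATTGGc
SCD, chr10:100346983-100347123, plus strand: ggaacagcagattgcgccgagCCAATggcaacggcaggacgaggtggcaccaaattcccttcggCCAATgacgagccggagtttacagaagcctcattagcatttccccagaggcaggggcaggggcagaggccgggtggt
INSIG1, chr7:155297628-155297775, plus strand: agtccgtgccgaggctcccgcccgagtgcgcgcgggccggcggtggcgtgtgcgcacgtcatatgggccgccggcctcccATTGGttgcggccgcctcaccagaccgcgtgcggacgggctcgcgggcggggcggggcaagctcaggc
LSS, chr21:46228875-46229024, minus strand: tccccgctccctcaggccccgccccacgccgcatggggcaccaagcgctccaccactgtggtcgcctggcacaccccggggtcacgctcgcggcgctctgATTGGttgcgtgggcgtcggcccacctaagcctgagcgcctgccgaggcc
NSDHL, chrX:152830813-152830962, plus strand: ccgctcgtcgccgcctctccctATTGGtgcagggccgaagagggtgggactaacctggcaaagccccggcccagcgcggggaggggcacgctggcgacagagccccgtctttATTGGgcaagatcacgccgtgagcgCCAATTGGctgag
SREBF1, chr17:17837087-17837236, minus strand: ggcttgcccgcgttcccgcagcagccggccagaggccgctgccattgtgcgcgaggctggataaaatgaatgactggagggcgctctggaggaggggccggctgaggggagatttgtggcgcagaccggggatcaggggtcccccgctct
The SREBF2 stretch held the only TCACNCCAC match among the members, 133 bases before the start, with a CCAAT on the other strand at 106 bases. SCD held CCAAT at 229 and 186 bases before the start, INSIG1 at 170, and LSS at 150. NSDHL held CCAAT matches at 228, 138 and 113 bases, the last of them overlapping a match on the other strand. The SREBF1 stretch held neither motif. Nor did the stretches of ACACA, ACLY, DHCR7, LBR and SCAP, which were also lower after AgNPs and after COM and are not printed. ACLY and DHCR7 held CCAAT nearer the start, outside the stretch. STARD4, called neither after AgNPs nor after COM, held CCAAT at 161 and 130 bases. These matches describe the letters only, since no binding was measured here.

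With AgNPs, 19 of the 33 members fell against BLANK and none rose, where 16% of all genes tested were called lower and 14.9% higher. The fall took in 6 of 8 fatty acid enzymes, 4 of 5 SREBP control genes and 8 of 12 enzymes from squalene to cholesterol. Of the enzymes from acetyl-CoA to farnesyl diphosphate, 1 of 7 fell (14.29%), below the 16% of all genes. The median log2 change was -0.21 over the fatty acid enzymes and -0.19 over the 19 sterol enzymes, against 0.009 over all genes tested. In bulk RNA, fewer cells that express a gene and less of its RNA per cell cannot be told apart.

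**Figure D1:**
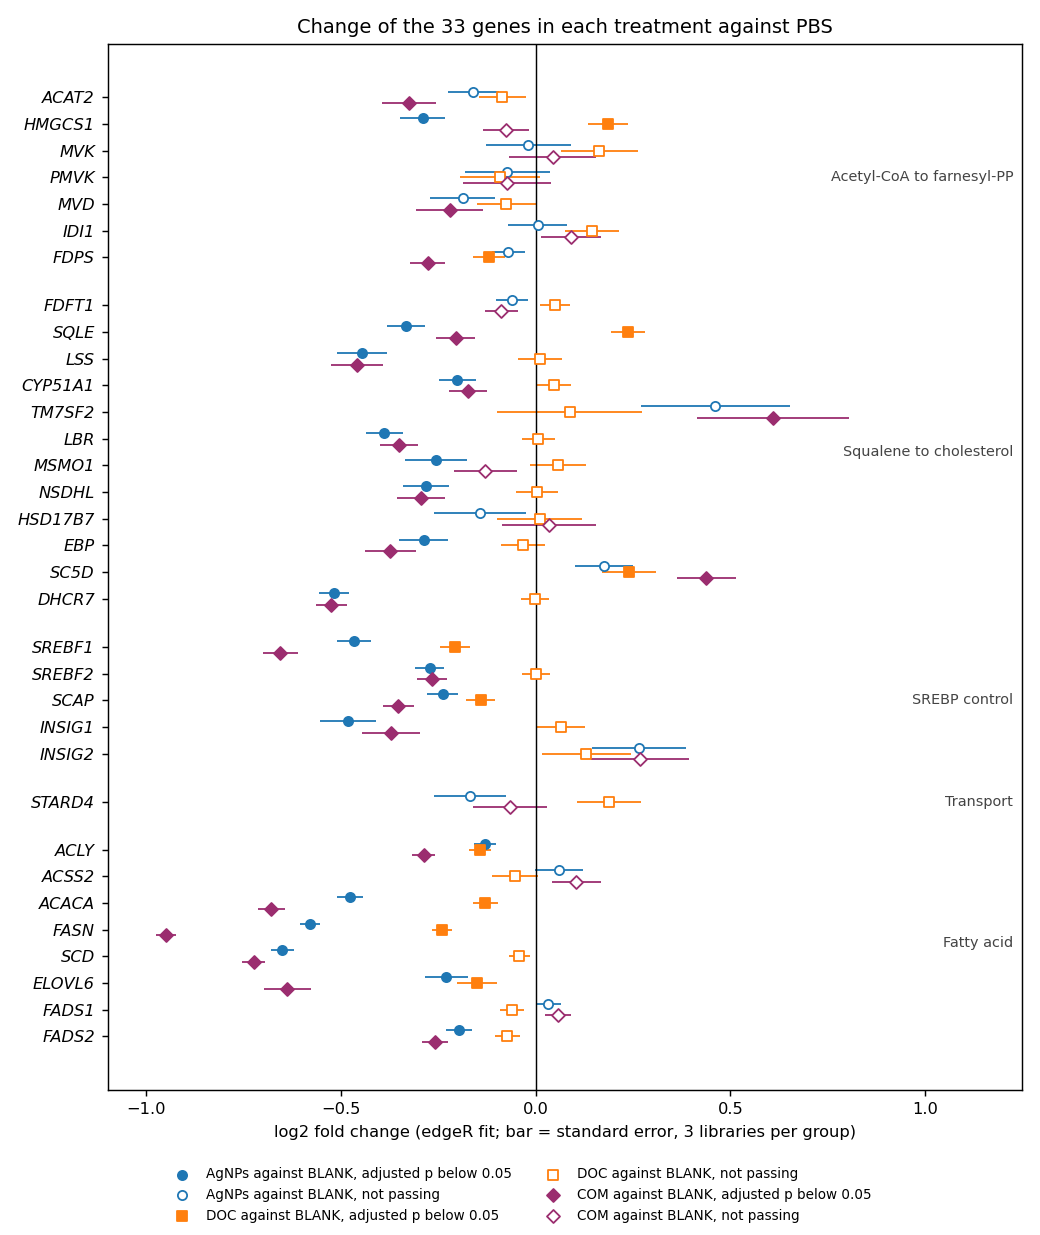
Log2 fold change of each of the 33 genes in AgNPs (circles), DOC (squares) and COM (diamonds) against BLANK, with standard errors from the fit to 3 libraries per group. Filled symbols passed an adjusted p below 0.05: FASN lies at -0.58 with AgNPs, -0.24 with DOC and -0.95 with COM, while DHCR7 lies at -0.52, 0.00 and -0.53.

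Among the fatty acid enzymes, SCD, the desaturase that makes oleate and palmitoleate (chr10:100347233-100364826), was at 429, 411 and 427 CPM in the BLANK libraries and at 265, 275 and 268 in AgNPs. In DOC it was at 399.7, 420.4 and 411 CPM, and in COM at 251, 258 and 258. All 6 libraries with AgNPs lay below all 6 without, and the DOC libraries overlapped those of BLANK. SCD fell by 0.65 ± 0.03 on the log2 scale with AgNPs (adjusted p = 9.25e-20).

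FASN, the synthase that builds palmitate (chr17:82078338-82098236), was at 990.3, 1037 and 1045 CPM in BLANK, 679.6, 687 and 689 in AgNPs, 879, 864.5 and 856 in DOC, and 531, 534 and 526 in COM. The 4 groups did not overlap, in the order BLANK, DOC, AgNPs, COM. The log2 change was -0.58 ± 0.03 with AgNPs (adjusted p = 8.44e-20). ACACA, the acetyl-CoA carboxylase that supplies malonyl-CoA to FASN (chr17:37084992-37406836), kept the same order of groups without overlap, at 177.4, 179 and 177.3 CPM in BLANK, 158, 166 and 164 in DOC, 124, 128 and 131.5 in AgNPs, and 111, 113 and 109 in COM. It fell by 0.48 ± 0.03 on the log2 scale with AgNPs (adjusted p = 3.33e-14).

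ELOVL6, which lengthens palmitate to stearate, was at 43.5, 42.9 and 40.2 CPM in BLANK and 36.0, 37.7 and 34.2 in AgNPs, a fall by 0.23 ± 0.06 on the log2 scale (adjusted p = 0.00124). FADS2, the delta-6 desaturase of polyunsaturated fatty acids, fell by 0.20 ± 0.03, and ACLY, which makes cytosolic acetyl-CoA from citrate, fell by 0.13 ± 0.03. FADS1, the delta-5 desaturase, was at 140.7, 137.5 and 136.5 CPM in BLANK and 143, 138 and 143 in AgNPs, overlapping groups with an adjusted p of 0.504. ACSS2, which makes acetyl-CoA from acetate, likewise did not pass, at 0.06 ± 0.06. FADS1 and FADS2 lie head to head on opposite strands of chromosome 11 and overlap by 801 bases. The strand setting of the authors' counting is not given in the sources used here, so reads of that stretch are uncertain.

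**Figure D2:**
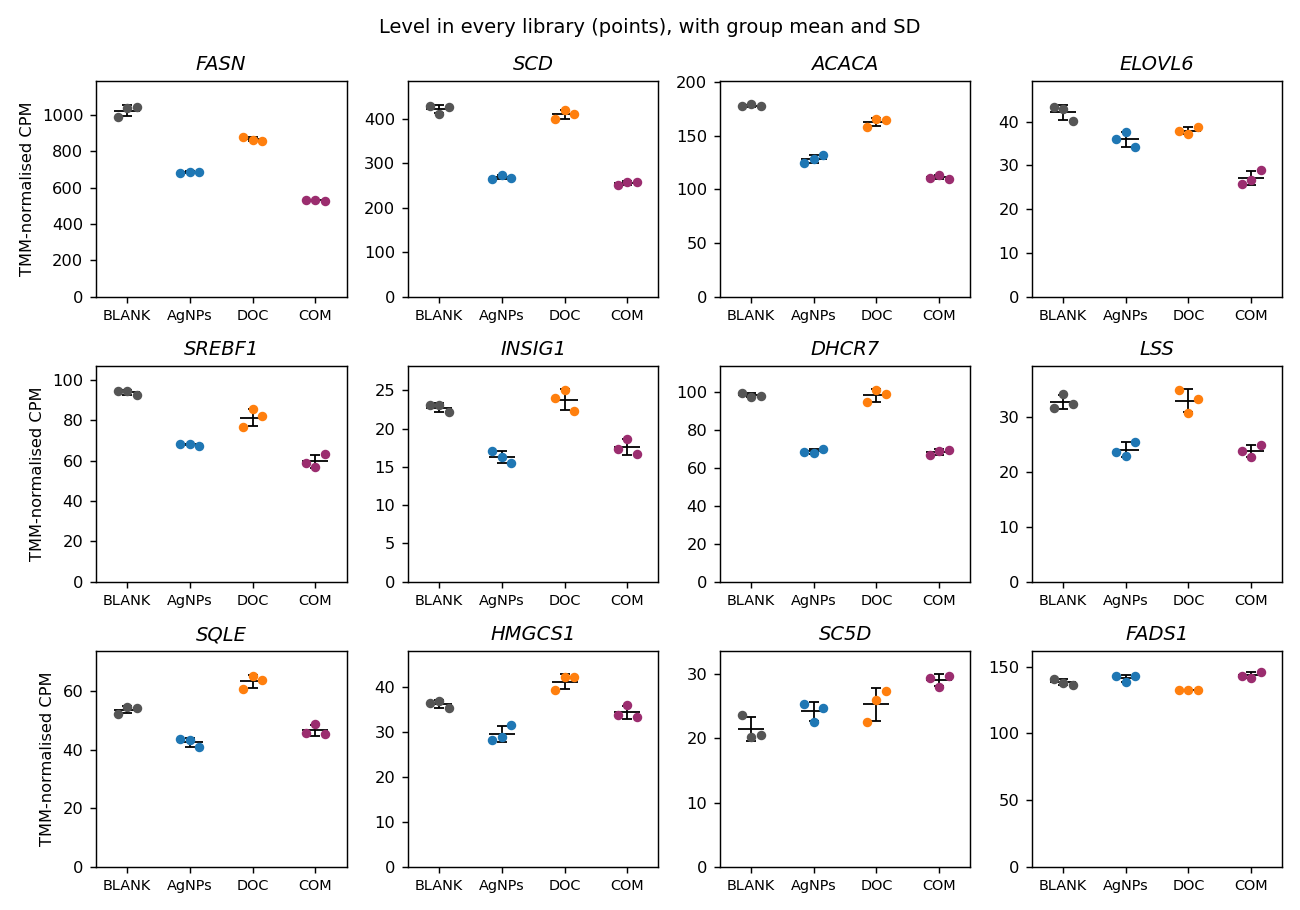
TMM-normalised CPM of 12 of the genes in each of the 12 libraries (points), with the group mean and SD as bars, on axes that start at 0. SCD lies at 251 to 275 CPM in the 6 libraries with AgNPs and at 399.7 to 429 in the 6 without, while the group means of FASN run from 1024 in BLANK to 530.3 in COM with no overlap.

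In the sterol branch, DHCR7, the reductase of the last step to cholesterol (chr11:71427287-71449043), was at 99.5, 97.3 and 98.0 CPM in BLANK and 68.4, 67.6 and 69.9 in AgNPs. In DOC it was at 94.5, 101 and 98.8 CPM and in COM at 66.7, 68.9 and 69.3. The libraries with AgNPs and those without did not overlap. DHCR7 fell by 0.52 ± 0.04 on the log2 scale with AgNPs (adjusted p = 2.76e-13), more than any other sterol enzyme by this estimate.

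LSS, which closes squalene epoxide to lanosterol (chr21:46188446-46228774), was at 31.6, 34.1 and 32.4 CPM in BLANK and 23.6, 22.9 and 25.5 in AgNPs, a log2 change of -0.45 ± 0.06 (adjusted p = 7.29e-07). LBR, a sterol reductase that also tethers the nuclear lamina, changed by -0.39 ± 0.05 and SQLE, the epoxidase before LSS, by -0.33 ± 0.05. EBP, the sterol isomerase, changed by -0.29 ± 0.06, NSDHL, which takes part in removing the C4 methyl groups, by -0.28 ± 0.06, and CYP51A1, the lanosterol demethylase, by -0.20 ± 0.05. MSMO1, the C4 methyl oxidase, changed by -0.26 ± 0.08, but its adjusted p of 0.0113 became 0.0869 without BLANK replicate 1, 0.12 without AgNPs replicate 1 and 0.0533 with DESeq2. FDFT1, squalene synthase, at -0.06 ± 0.04, HSD17B7, a ketosteroid reductase of the C4 demethylation, at -0.14 ± 0.12, SC5D at 0.18 ± 0.08 and TM7SF2 at 0.46 ± 0.19 did not pass. HSD17B7 is uncertain, since its pseudogene HSD17B7P2 had 5.58% as many counts.

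Of the early enzymes, HMGCS1, which makes HMG-CoA, was the only called one, at 36.5, 37.0 and 35.3 CPM in BLANK and 28.3, 28.99 and 31.6 in AgNPs. Its log2 change was -0.29 ± 0.06 (adjusted p = 0.000134). MVK, PMVK, IDI1 and FDPS lay between -0.07 and 0.01, and ACAT2 and MVD at -0.16 and -0.19, none of them passing. The bordering calls moved with single libraries. Without BLANK replicate 1, FDPS (0.0485), MVD (0.0228) and SC5D (0.016) passed. ACAT2 passed without DOC replicate 1 (0.0446) or 2 (0.0495), SC5D without AgNPs replicate 2 (0.042) or DOC replicate 1 (0.0413), and INSIG2 without BLANK replicate 3 (0.0452), all values being adjusted p. ACAT2, MVK and IDI1 overlap other expressed genes at an end, among them TCP1, MMAB and WDR37, and IDI1 had 69.67% of its counts on RefSeq rows, so their values are uncertain. FDPS overlaps the noncoding gene RUSC1-AS1 by 3812 bases, and that gene had 6.04% as many counts, so reads of that stretch are uncertain.

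Of the control genes, SREBF1 (chr17:17811334-17836986) was at 94.8, 94.6 and 92.6 CPM in BLANK, 68.3, 68.3 and 67.5 in AgNPs, 76.8, 85.4 and 82.0 in DOC, and 58.6, 56.9 and 63.4 in COM. Its groups did not overlap, and came in the same order as those of FASN. SREBF1 fell by 0.47 ± 0.04 on the log2 scale with AgNPs (adjusted p = 4.51e-11). SREBF1 overlaps the neighbouring gene RAI1 by 120 bases, so reads of that stretch are uncertain. SREBF2 (chr22:41833105-41907305) was at 112, 109 and 114 CPM in BLANK, 92.8, 91.8 and 92.5 in AgNPs, 109, 114 and 111 in DOC, and 88.0, 95.8 and 94.3 in COM. SREBF2 followed the presence of AgNPs without overlap, a log2 change of -0.27 ± 0.04 with AgNPs (adjusted p = 3.55e-07).

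INSIG1 (chr7:155297878-155310235) was at 23.1, 23.1 and 22.1 CPM in BLANK and 17.1, 16.3 and 15.5 in AgNPs, and changed by -0.48 ± 0.07 (adjusted p = 1.54e-06). INSIG1 overlaps the noncoding gene INSIG1-DT by 1103 bases, and that gene had 9.05% as many counts, so reads of that stretch are uncertain. SCAP changed by -0.24 ± 0.04. INSIG2, the second of the INSIG pair, was at 6.08, 8.38 and 8.61 CPM in BLANK and 9.31, 8.29 and 10.1 in AgNPs, overlapping groups that did not pass at 0.26 ± 0.12. STARD4, a carrier of cholesterol between membranes, did not pass at -0.17 ± 0.09.

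DOC alone changed fewer members: 7 fell and 3 rose, where 9.81% of all genes tested were called lower and 7.16% higher. The falls were FASN, ACACA, ACLY and ELOVL6 of the fatty acid enzymes, SREBF1 and SCAP of the control genes, and FDPS, which makes farnesyl diphosphate. The 3 rises among 33 members, a share near the 7.16% of all genes, were SQLE, HMGCS1 and SC5D. These 3 belong to the sterol branch, whose 19 enzymes had a median log2 change of 0.01. The fatty acid enzymes had a median of -0.10.

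FASN fell by 0.24 ± 0.03 on the log2 scale with DOC (adjusted p = 2.36e-08), SREBF1 by 0.21 ± 0.04 (adjusted p = 0.000306), ACLY by 0.14 ± 0.03 (adjusted p = 0.000414) and ACACA by 0.13 ± 0.03 (adjusted p = 0.00345). SQLE rose from 52.3, 54.8 and 54.2 CPM in BLANK to 60.8, 65.3 and 64.0 in DOC, without overlap, a log2 change of 0.24 ± 0.04 (adjusted p = 0.000189). HMGCS1 rose to 39.3, 42.2 and 42.2 CPM, also without overlap, at 0.19 ± 0.05. SC5D, a desaturase late in the pathway, was at 23.6, 20.3 and 20.5 CPM in BLANK and 22.5, 25.98 and 27.4 in DOC, where the groups overlapped, at 0.24 ± 0.07. SCD did not pass at -0.04 ± 0.03 (adjusted p = 0.333), and DHCR7 and SREBF2 were at 0.00 ± 0.04.

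Several of the DOC calls were slight. With limma-trend on log2(FPKM + 1), 2 members were called lower and 1 higher, and SREBF1 (adjusted p = 0.115) and ACACA (0.353) no longer passed. DESeq2 called 6 lower and 1 higher. HMGCS1 ended without BLANK replicate 3 (0.0579), DOC replicate 2 (0.0627) or DOC replicate 3 (0.0589), and SCAP without BLANK replicate 3 (0.0568) or DOC replicate 2 (0.0633). SC5D ended without BLANK replicate 2 (0.093), BLANK replicate 3 (0.0824), DOC replicate 2 (0.0782) or DOC replicate 3 (0.138). FDPS ended without BLANK replicate 2 (0.172) or 3 (0.177), any AgNPs replicate (0.052, 0.0589 and 0.054), or DOC replicate 2 (0.147) or 3 (0.189). ELOVL6 ended without BLANK replicate 1 (0.139) or 2 (0.127), AgNPs replicate 1 (0.0527) or 2 (0.0506), or DOC replicate 1 (0.0577) or 2 (0.123). Leaving out BLANK replicate 3 left 6 calls, and leaving out DOC replicate 2 left 5.

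With AgNPs and DOC together, 20 members fell and 2 rose against BLANK, where 24.5% of all genes tested were called lower and 25.1% higher. The falls took in the 6 fatty acid enzymes and the 4 control genes that fell with AgNPs, and 10 of 19 sterol enzymes. The median log2 change was -0.46 over the fatty acid enzymes and -0.17 over the sterol enzymes, against 0.030 over all genes tested. FASN changed by -0.95 ± 0.03 (adjusted p = 1.94e-26), to 1.93-fold below BLANK, and SCD by -0.72 ± 0.03. ACACA changed by -0.68 ± 0.03, SREBF1 by -0.66 ± 0.05, ELOVL6 by -0.64 ± 0.06 and DHCR7 by -0.53 ± 0.04.

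ELOVL6 was at 25.8, 26.7 and 28.8 CPM in COM, below all libraries of the other groups. ACAT2, the cytosolic thiolase that begins the pathway, fell by 0.33 ± 0.07 on the log2 scale, MVD, the mevalonate diphosphate decarboxylase, by 0.22 ± 0.09 and FDPS by 0.28 ± 0.04. HMGCS1, at 33.8, 35.9 and 33.4 CPM in COM, overlapped BLANK and did not pass (-0.08 ± 0.06, adjusted p = 0.291). SQLE, at 45.8, 48.7 and 45.3 CPM in COM, lay below BLANK without overlap, at -0.21 ± 0.05.

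The 2 rises in COM were SC5D, at 29.4, 28.0 and 29.8 CPM (0.44 ± 0.08, adjusted p = 8.37e-06), and TM7SF2, a sterol reductase whose activity LBR shares. TM7SF2 was low, at 2.07, 2.17 and 1.82 CPM in BLANK and 3.71, 2.72 and 2.83 in COM, where replicate 1 stood highest. Its log2 change was 0.61 ± 0.19 (adjusted p = 0.00895), and 0.0961 without COM replicate 1 and 0.0938 with DESeq2. The call of MVD ended without BLANK replicate 2 (0.0578) or 3 (0.222) or COM replicate 2 (0.0893) or 3 (0.0894). FDFT1 passed without COM replicate 3 (0.0204), and INSIG2 without BLANK replicate 2 (0.0445) or 3 (0.0308) or COM replicate 1 (0.032).

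**Figure D3:**
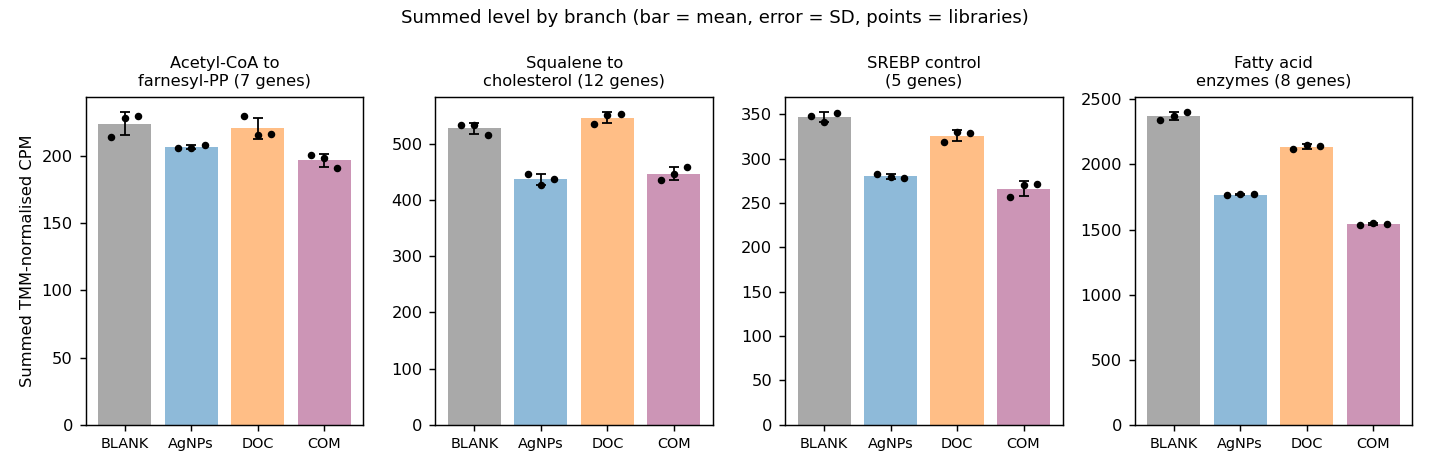
Summed TMM-normalised CPM of the genes of each branch in every library (points), with the group mean as a bar and the SD as the error, n = 3. The fatty acid sum steps down from 2372 in BLANK to 2137 in DOC, 1769 in AgNPs and 1544 in COM, while the sum from squalene to cholesterol is 527 and 547 without AgNPs and 437 and 447 with AgNPs.

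Summed by branch, the fatty acid enzymes made up 2372 ± 28.6 CPM (SD, n = 3) in BLANK, 2137 ± 17.1 in DOC, 1769 ± 6.28 in AgNPs and 1544 ± 8.58 in COM. These 4 ranges did not overlap. The enzymes from squalene to cholesterol summed to 527 ± 9.46 CPM in BLANK, 547 ± 9.33 in DOC, 437 ± 9.63 in AgNPs and 447 ± 11.1 in COM, where AgNPs and COM overlapped and BLANK and DOC did not. The enzymes up to farnesyl diphosphate summed to 224 ± 8.61 CPM in BLANK, 220.4 ± 7.75 in DOC, 207 ± 1.43 in AgNPs and 197 ± 5.09 in COM. These sums are led by the most abundant members. Per length, the highest in BLANK were FASN at 121 FPKM, FADS2 at 88.5, FDPS at 83.3 and SCD at 77.7, and the lowest were TM7SF2 at 1.33, INSIG2 at 2.99 and SC5D at 3.09.

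The combination was then set against each single agent, which asks what DOC added to AgNPs and AgNPs to DOC. Against AgNPs, 6 members were lower in COM and 2 higher, where 12% of all genes tested were called lower and 9.87% higher. ELOVL6 (-0.41 ± 0.07), FASN (-0.37 ± 0.03), FDPS (-0.21 ± 0.05), ACACA (-0.20 ± 0.04), SREBF1 (-0.19 ± 0.05) and ACLY (-0.16 ± 0.03) were lower. SC5D (0.26 ± 0.08) and HMGCS1 (0.21 ± 0.06) were higher. DESeq2 called 6 lower and 0 higher.

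No enzyme from squalene to cholesterol was called lower in COM than in AgNPs, and DHCR7, LSS, NSDHL and SREBF2 lay between -0.01 and 0.00. The call of HMGCS1 ended without AgNPs replicate 1 (0.0865) or 2 (0.065) or COM replicate 2 (0.0953), and that of SC5D without AgNPs replicate 2 (0.108) or COM replicate 1 (0.0575) or 3 (0.0651). SCAP, at an adjusted p of 0.0551, passed without any 1 of DOC replicates 1 (0.0422), 2 (0.0492) and 3 (0.0438) or COM replicate 2 (0.0447), and SCD passed without DOC replicate 1 (0.0482).

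Against DOC, 22 members were lower in COM and 3 higher, where 18.5% of all genes tested were called lower and 18.1% higher. This is the AgNPs effect in the presence of DOC, and shares no library with AgNPs against BLANK. Of the 19 members lower in AgNPs against BLANK, 18 (94.74%) were also lower in COM against DOC, and they made up 81.82% of the 22. The same overlap over all genes tested was not counted, so whether the members stand out in it is not known. MSMO1 was lower in the former only, and ACAT2, FDFT1, FDPS and STARD4 in the latter only, though the difference between the contrasts passed for none of them. FASN changed by -0.71 ± 0.03, SCD by -0.68 ± 0.03, ACACA by -0.55 ± 0.04, DHCR7 by -0.52 ± 0.04 and ELOVL6 by -0.49 ± 0.06. SQLE changed by -0.44 ± 0.05, with the 3 COM libraries all below the 3 DOC libraries.

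The higher members were TM7SF2 (0.52 ± 0.20), SC5D (0.20 ± 0.08) and FADS1, at 133, 132 and 132 CPM in DOC and 143, 142 and 146 in COM (0.12 ± 0.03, adjusted p = 0.00495). TM7SF2 ended without DOC replicate 1 (0.064), 2 (0.0729) or 3 (0.0577) or COM replicate 1 (0.223). SC5D ended without DOC replicate 1 (0.209) or COM replicate 1 (0.0984), 2 (0.0531) or 3 (0.117). Of the falls, ACAT2 ended without COM replicate 3 (0.0658), FDFT1 without COM replicate 1 (0.138), FDPS without DOC replicate 1 (0.0649), and STARD4 without DOC replicate 1 (0.249) or COM replicate 2 (0.215). ACSS2 passed as higher without DOC replicate 3 (0.0359) or COM replicate 3 (0.042). Without the filter on low counts no member was called higher.

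**Figure D4:**
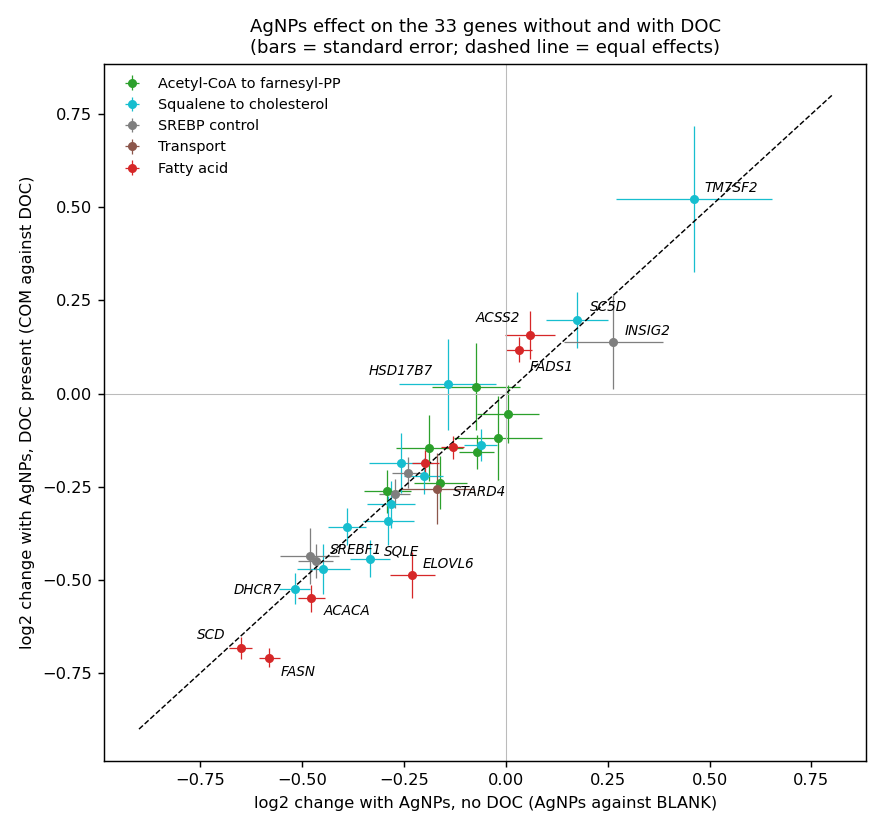
Log2 change with AgNPs in the absence of DOC (AgNPs against BLANK, horizontal) and in its presence (COM against DOC, vertical) for the 33 genes, with standard errors and the line of equal effects. Most genes lie near the line, with FASN at -0.58 and -0.71 and ELOVL6 at -0.23 and -0.49 below it.

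The interaction subtracts the change made by DOC alone from the change DOC made on top of AgNPs, and so tests for departure from additive log2 changes. It called 0 of the 33 members with edgeR, where 0.731% of all genes tested were called above 0 and 0.375% below. At an unadjusted p below 0.05, 2 members passed, and DESeq2 called 1, FASN (adjusted p = 0.0391). For FASN the interaction was -0.13 ± 0.04 in edgeR (adjusted p = 0.0926), and for ELOVL6 -0.26 ± 0.08 (adjusted p = 0.164). For SREBF2 it was 0.00 ± 0.05, and for DHCR7 -0.01 ± 0.06. A miss of the threshold does not show that the effects added up exactly.

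Set directly against DOC, AgNPs left 18 members lower and 1 higher, where 11.9% of all genes tested were called lower and 13.7% higher. The falls were 10 of 19 sterol enzymes, 4 of 8 fatty acid enzymes, 3 of 5 control genes, and STARD4. SCD (-0.61 ± 0.03), SQLE (-0.57 ± 0.05), INSIG1 (-0.55 ± 0.07), DHCR7 (-0.52 ± 0.04) and HMGCS1 (-0.48 ± 0.06) were the furthest apart, while ACLY (0.01 ± 0.03), FDPS (0.05 ± 0.04) and ELOVL6 (-0.08 ± 0.06) did not pass. FADS1 was the member higher with AgNPs, at 0.09 ± 0.03 (adjusted p = 0.0314), and ended without AgNPs replicate 1 (0.0795) or 3 (0.0736) or DOC replicate 2 (0.0678) or 3 (0.064). FDFT1, at an adjusted p of 0.0444, ended without BLANK replicate 2 (0.0535), AgNPs replicate 1 (0.058), 2 (0.173) or 3 (0.2), DOC replicate 1 (0.101), 2 (0.0613) or 3 (0.0732), or COM replicate 2 (0.0568) or 3 (0.0507). SCAP passed without DOC replicate 2 (0.0392).

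Around these members, 7 lists with 86 genes of neighbouring pathways were counted, to be read against the shares over all genes tested, 16% lower and 14.9% higher with AgNPs and 24.5% lower and 25.1% higher in COM. For SREBP processing and degradation, 3 of 12 genes fell with AgNPs and none rose, and 5 fell and 3 rose in COM. TRIM59, a ubiquitin ligase, changed by -0.66 ± 0.06 with AgNPs and -0.70 ± 0.06 in COM, though whether it acts on SREBP proteins was not tested here. RNF145, a ligase that acts on SCAP, changed by -0.29 ± 0.04 and -0.37 ± 0.04. UBE2G2, a conjugating enzyme of endoplasmic reticulum degradation, changed by -0.18 ± 0.04 and -0.34 ± 0.04. Of 7 tested LXR targets and efflux genes, 1 fell with AgNPs (14.29%, below the 16% of all genes called lower). In COM, 2 fell and 1 rose (42.86% called in either direction), beside 24.5% of all genes called lower and 25.1% higher. LPCAT3, a lysophospholipid acyltransferase, changed by -0.37 ± 0.06 with AgNPs and -0.47 ± 0.06 in COM. ABCA3, a lipid transporter, changed by -0.29 ± 0.08 in COM (adjusted p = 0.00368, and 0.0502 without COM replicate 1), and SMPDL3A by 0.44 ± 0.14 (0.00747, and 0.104 without COM replicate 3).

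Of 11 sterol trafficking and storage genes, 5 were higher and 3 lower in AgNPs, and 5 higher and 4 lower in COM, beside 14.9 and 16% of all genes in AgNPs and 25.1 and 24.5% in COM. NPC1, which carries cholesterol out of lysosomes, was at 74.9, 73.3 and 76.3 CPM in BLANK, 106, 103 and 105 in AgNPs, 78.0, 80.8 and 85.5 in DOC, and 119, 125 and 117 in COM. It rose by 0.48 ± 0.04 with AgNPs and 0.69 ± 0.04 in COM on the log2 scale. OSBP, a cholesterol exchange protein, rose by 0.24 ± 0.04 and 0.26 ± 0.04. SCARB1, the HDL receptor, fell by 0.28 ± 0.03 and 0.39 ± 0.04.

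Of 10 genes of the isoprenoid branches, 2 fell with AgNPs and 5 in COM, and none rose, beside 16 and 24.5% of all genes called lower. PDSS1 of ubiquinone synthesis changed by -0.43 ± 0.08 and -0.50 ± 0.08 and NUS1 of dolichol synthesis by -0.18 ± 0.04 and -0.34 ± 0.04, with AgNPs and in COM respectively. FNTB, a farnesyltransferase subunit, did not pass with AgNPs (-0.12 ± 0.11) and changed by -0.38 ± 0.11 in COM (adjusted p = 0.00873, and 0.0581 without COM replicate 1). Of 16 tested elongation and activation genes, 6 fell and none rose with AgNPs, and 6 fell and 4 rose in COM, the rises at the share of all genes. The acyl-CoA synthetase ACSL1 changed by -0.35 ± 0.07 and -0.47 ± 0.07, ACSL3 by -0.21 ± 0.04 and -0.30 ± 0.04, and the mitochondrial acyltransferase MCAT by -0.29 ± 0.07 and -0.48 ± 0.08.

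Of 12 tested triglyceride and phospholipid genes, 4 rose and 2 fell with AgNPs, and 5 rose and 5 fell in COM, the falls with AgNPs being near the share of all genes. PLIN2, the coat protein of lipid droplets, was at 96.6, 97.4 and 96.8 CPM in BLANK, 182, 182.5 and 188 in AgNPs, 103, 95.6 and 100.2 in DOC, and 228, 236 and 226 in COM. It rose by 0.93 ± 0.03 with AgNPs (adjusted p = 2.1e-22) and 1.246 ± 0.034 in COM (adjusted p = 1.03e-26). PNPLA2, the triglyceride lipase, rose by 0.47 ± 0.04 and 0.74 ± 0.04, and LPIN2, a phosphatidate phosphatase, by 0.36 ± 0.05 and 0.47 ± 0.05. Of 15 genes of fatty acid oxidation, 1 rose and 1 fell with AgNPs (13.33% called), where 14.9% of all genes tested were called higher and 16% lower. In COM, 5 fell (33.33%) and none rose, where 24.5% of all genes tested were called lower and 25.1% higher. ECI2, an enoyl-CoA isomerase, fell in COM by 0.55 ± 0.06, HADH, a dehydrogenase of the same pathway, by 0.40 ± 0.09, and HADHA of the trifunctional protein by 0.12 ± 0.03.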

How the data were processed

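RNA of PC3 cells in 4 groups of 3 libraries was made with an mRNA library kit, per the labels' protocols. The submitters' processing notes name HISAT2, Bowtie2 2.2.5, RSEM and the build GRCh38, without the role of each. The authors deposited expected counts per transcript, not normalised, and FPKM, a unit worked out from the values. Of 221796 deposited rows, 177700 linear rows were used and 44096 circular rows were not. Expected counts were summed by gene and rounded. Positions and promoters are from RefSeq on GRCh38.p14, and exons from GENCODE on GRCh38.

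edgeR 4.0.16 in R 4.3.3 fitted all 12 libraries with TMM, filterByExpr and 1 coefficient per group in a robust quasi-likelihood model, two-sided, with Benjamini-Hochberg adjustment over 19986 genes. The common biological coefficient of variation was 0.0334. Precision follows the depth per library, 10996446 to 22769479 counts. Alternatives were RLE factors, DESeq2 1.42.0, no filter, 1 CPM in 3 libraries, a replicate term, RefSeq rows only, limma-trend (limma 3.58.1) on log2(FPKM + 1) and log2(FPKM + 0.1), only the groups compared, thinning, and each library left out. Scripts were tested on simulated data. No 2 libraries of a group agreed within counting noise.

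The members, the 7 neighbouring lists and the rules were chosen with earlier results of these data known, so none is independent evidence. Members were all described, and from each neighbouring list up to 3 genes called in COM against BLANK were named, those with the smallest adjusted p and an average log2 CPM of at least 1.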

Additional observations from a re-analysis of the deposited data

Results flagged for a closer look

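PLIN2, the lipid droplet coat gene, was flagged because the DOC effect on it differed between cells with and without AgNPs by a test of that difference. The interaction was 0.28 ± 0.05 on the log2 scale (edgeR, adjusted p = 0.000589). PLIN2 was higher in COM than in AgNPs by 0.32 ± 0.03, while DOC against BLANK did not pass at 0.04 ± 0.03 (adjusted p = 0.519). No group had enough libraries for the test of single outlying samples.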

How the results depend on the processing

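Over 22 alternatives, 5047 values of single members were recomputed: 0 reversed, 125 lost their call, 46 gained one and 4876 did neither. Of 103 calls of members, 85 held with every library left out in turn. The counts of members called in AgNPs and in COM against BLANK stayed within 1.5 times under every alternative, at 18 to 21 and 20 to 23. The cause of the following moves was not tested, apart from fewer libraries or fewer counts where the alternative itself removes them.

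The members called in DOC against BLANK, 10 in the main result, came to 3 with limma-trend at either pseudocount and to 5 to 10 with 1 library left out. Over all genes that comparison called 3391, but 1061 with limma-trend at a pseudocount of 1, 1103 at 0.1, 2208 after thinning and 2204 to 4027 with 1 library left out. DESeq2 split it into 551 higher and 1740 lower, against 1430 and 1961, and split COM against AgNPs into 1083 and 2056, against 1973 and 2396. The interaction called 0 members and 221 genes, against 1 and 136 with DESeq2, 54 and 49 genes with limma-trend at 1 and 0.1, and 115 to 269 genes with 1 library left out.

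The median log2 change of the fatty acid enzymes kept its sign throughout. In AgNPs against BLANK it was -0.213, and -0.229 with DESeq2, -0.237 with no filter, -0.186 and -0.196 with limma-trend, and -0.225 to -0.185 with 1 library left out. In DOC against BLANK it was -0.101, and -0.122 with DESeq2, -0.117 with no filter, -0.082 with RefSeq rows, -0.061 and -0.064 with limma-trend, and -0.12 to -0.086 with 1 library left out. In COM against BLANK it was -0.463, and -0.494 with DESeq2, -0.512 with no filter, -0.431 with RefSeq rows, -0.42 with limma-trend at 1, and -0.48 with only the groups compared. In COM against AgNPs it was -0.115, and -0.141 with no filter and -0.088 with RefSeq rows. In COM against DOC it was -0.336, and -0.369 with no filter, -0.316 with RefSeq rows, and -0.36 to -0.308 with 1 library left out. In AgNPs against DOC it was -0.101, and -0.121 with limma-trend at 0.1 and -0.125 to -0.075 with 1 library left out. For the interaction it was -0.022, and -0.05 and -0.051 with limma-trend and -0.039 to -0.013 with 1 library left out.

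Replicate numbers are shared by the groups. Over 18 same-numbered pairs, deviations from the group means correlated at -0.111 to 0.049, and 0 pairs lay above 0.1. Taken over all genes tested, this check could miss a small shared batch, so it does not settle whether the numbers mark one. With the replicate block, 19 members were called in AgNPs against BLANK, 8 in DOC against BLANK, 22 in COM against BLANK, 8 in COM against AgNPs, 25 in COM against DOC, 18 in AgNPs against DOC and 0 in the interaction. With every library thinned to the depth of the shallowest, 7 members were called in DOC against BLANK, against 10 at full depth.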
